A study of Mus musculus with 4 samples.

Results

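Of the machinery that transports, converts and reads thyroid hormone, 6 genes are described here in mouse sciatic nerve. Crym, Dio2, Dio3, Thra, Thrb and Klf9 were chosen by gene symbol among the 50593 genes of the Cuffdiff comparison, and each symbol matched 1 gene. Thyroid hormone reaches a cell through membrane transporters. Inside the cell it is converted by deiodinases, held by the binding protein μ-crystallin, and read by nuclear receptors that switch their target genes on or off. Dio2 encodes the deiodinase that turns thyroxine into the active hormone triiodothyronine, and Dio3 encodes the enzyme that inactivates both. Thra and Thrb encode the receptors, Crym encodes μ-crystallin, and Klf9 encodes a zinc finger transcription factor that is a direct and widely used response gene of the hormone. In peripheral nerve, thyroid hormone is known for its role in the maturation of Schwann cells and in nerve repair, and transthyretin is one of its carriers in blood.

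Sciatic nerves of mice of strain 129S1/SvImJ, 6 months old, were sequenced in 2 samples labelled HSF V30M TTR and 2 labelled HSF WT TTR. By the labels and methods, both groups carried the heterozygous deletion of Hsf1, the gene of heat shock factor 1. HSF V30M mice carried in addition a human TTR V30M transgene on a background without functional mouse Ttr, and HSF WT mice carried no transgene; the promoter of the transgene and the sex of the mice are not given in the sources used here. The comparison asked which genes of the nerve differ between the amyloidosis model and its control.

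Each gene had 1 value per group, in FPKM (fragments scaled for transcript length and library size), estimated over the libraries of that group in Cuffdiff. The spread between mice is therefore not known. Differences are given as log2((HSF V30M FPKM + 1) / (HSF WT FPKM + 1)), which understates the change of low genes. Pairs of values are FPKM and give HSF V30M first. A gene was counted as past the fold when this ratio went beyond 1.5-fold in either direction. Intervals in brackets are exact 95% binomial intervals of the plain FPKM ratio and cover counting error only. They rest on the lowest number of fragments that a value can stand for. The worth of 1 fragment was read from low values of single-transcript genes, as medians inside 2 adjoining windows per group that were set by hand. These medians lay 1.18-fold apart in HSF V30M and 1.35-fold apart in HSF WT. Between groups, the lowest medians differed 1.24-fold, that of HSF V30M being lower. Adjoining windows can give such medians by themselves, and HSF V30M values are given to fewer decimals, so library depths are not shown by them. All fragment numbers and intervals are therefore approximate. Mouse Ttr itself was at 6.10 FPKM under the label HSF V30M and was listed at 0 under the label HSF WT, where 3 fragments would have given 0.197. By the methods, HSF V30M mice lack functional mouse Ttr and carry human TTR. Whether reads of human TTR were counted for mouse Ttr was not tested, so groups are named here as labelled. Hsf1 was at 7.94 FPKM in HSF V30M against 15.0 in HSF WT, a ratio of 0.531 (0.357 to 0.784). Of all genes with a mean of at least 1 FPKM, 5.15% had a lower log2 ratio. Both groups share the heterozygous deletion of Hsf1, and the cause of this difference was not tested. The 8 myelinating Schwann cell markers were all detected in both groups.

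Among the 6 genes, Klf9 was higher in the group labelled HSF V30M, Dio2 and Crym were lower, and the receptors Thra and Thrb were within the fold. Dio3 had a mean FPKM of 0.533, the lowest of the set. Ordered by level per length, Thra came first in both groups, followed by Klf9, Thrb, Dio2, Crym and Dio3, and without a spread between mice it cannot be said which neighbours in this order differ. Of the 5 genes whose mean over both groups reached 1 FPKM, 1 was past the fold and higher, 2 were past the fold and lower, and 2 were within it. Of the 15620 genes in the whole table that reached this mean, 16.7% were past the fold, 8.22% being higher and 8.44% lower. The median log2 ratio was 0.07 over the 5 genes and 0.00 over all 15620.

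**Figure D1:**
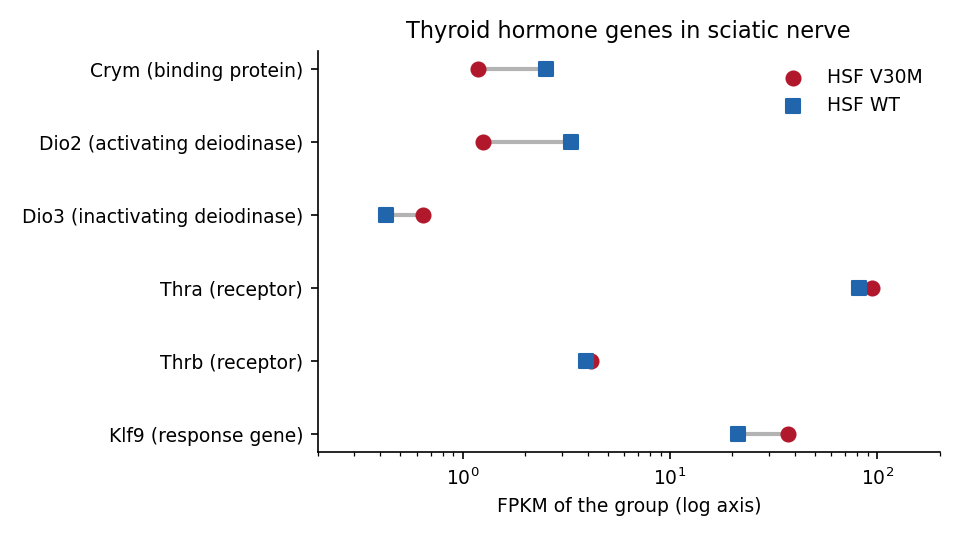
FPKM of the 6 thyroid hormone genes in sciatic nerve of HSF V30M (circles) and HSF WT (squares) on a log axis, with a grey line joining the group values, each of which is 1 estimate over the libraries of a group. Dio2 (1.26 and 3.34) and Crym (1.19 and 2.53) lie lower in HSF V30M, Klf9 (37.2 and 21.3) lies higher, and the points of Thrb nearly coincide.

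The promoters of Dio2 and Klf9 are shown because these genes differed most in the lower and in the higher direction. The sequences are from RefSeq (GRCm38.p6) and run 5′ to 3′ over the 250 bases before the transcription start; 4 of the 6 genes had a promoter in the table used, without Crym and Thra. Capitals mark the cAMP response element, the site through which cyclic AMP is known to switch on Dio2.

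Dio2, chr12:90739039-90739288, minus strand: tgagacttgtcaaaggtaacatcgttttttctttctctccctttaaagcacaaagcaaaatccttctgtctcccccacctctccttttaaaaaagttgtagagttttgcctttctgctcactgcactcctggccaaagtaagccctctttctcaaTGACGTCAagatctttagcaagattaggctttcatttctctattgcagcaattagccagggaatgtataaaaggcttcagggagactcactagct
Klf9, chr19:23140976-23141225, plus strand: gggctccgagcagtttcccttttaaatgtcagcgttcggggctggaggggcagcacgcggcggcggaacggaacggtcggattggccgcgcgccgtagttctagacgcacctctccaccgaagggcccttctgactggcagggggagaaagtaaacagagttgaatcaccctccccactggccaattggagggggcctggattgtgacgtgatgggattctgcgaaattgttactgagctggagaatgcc

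The cAMP response element, TGACGTCA, lay from 95 to 88 bases before the Dio2 start and was found on either strand in 1.55% of the 32851 promoter windows of the same length. The thyroid receptor half-site AGGTCA, present in 14% of the windows, was found from 184 to 179 bases before the upstream start of Thrb. The E-box CACGTG, which clock proteins can bind, was present in 6.02% of the windows and was found from 193 to 188 bases before the downstream start of Thrb. The direct repeat of 2 half-sites with 4 bases between them (0.0152% of windows), the D-box TTATGTAA (0.819%) and the glucocorticoid receptor palindrome (0.387%) were searched on both strands and were in none of the 5 windows of Dio2, Dio3, Thrb and Klf9. The direct repeat contains the half-site. The Klf9 window held none of the 6 motifs, which says only that these letters are absent from these 250 bases.

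Dio2 (ENSMUSG00000007682) lies in GRCm38 on chromosome 12, minus strand, from 90724552 to 90738438 and has 1 annotated transcript of 5815 bases. It reached 1.26 FPKM in HSF V30M against 3.34 in HSF WT, or about 155 to 182 fragments against 290 to 390. The HSF WT value was therefore 2.65 times the HSF V30M value (2.17 to 3.24), and the log2 ratio was -0.94. Of the 15620 genes, 4.36% had a lower ratio. The RefSeq start used for the promoter lies upstream of the annotated span. Gm26512, a long non-coding gene on the opposite strand, shares 238 bases with Dio2 and was at 0.080 FPKM in HSF V30M against 0.102 in HSF WT.

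Dio3 (ENSMUSG00000075707), on the plus strand of the same chromosome from 110279068 to 110281097, reached 0.640 FPKM in HSF V30M against 0.426 in HSF WT. These values stand for about 17 to 30 and 8 to 16 fragments. The ratio of 1.5 (0.614 to 4.02) spans 1, so a difference in the inactivating deiodinase was not detectable at this depth. The gene failed the minimum mean and is not among the 5 genes counted above. Dio1, the third deiodinase, found mainly in liver, kidney and thyroid, was listed at 0 in both groups. For Dio1, 3 fragments would have given 0.703 FPKM in HSF V30M and 0.995 in HSF WT. These limits lie above the Dio3 values, so which of Dio1 and Dio3 is lower is not known.

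Dio3 sits at the end of an imprinted cluster that begins with Dlk1. Of the 5 other genes of the cluster that were examined, 4 had a mean of at least 1 FPKM. All 4 had positive ratios, with a median of 0.29, beside 7876 positive ratios among all 15620 genes. Of the 4, 1 was past the fold. That gene was Dlk1, which encodes a membrane protein of immature adipose and stromal cells, with an FPKM of 14.3 in HSF V30M against 5.43 in HSF WT. Meg3, a maternally expressed long non-coding RNA, had 42.0 and 35.7, a ratio of 1.18 (0.935 to 1.49). This interval spans 1, as do those of Rian (0.854 to 1.98) and Mirg (0.411 to 2.98).

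Crym (ENSMUSG00000030905) lies on the minus strand of chromosome 7 from 120186380 to 120202111. It reached 1.19 FPKM in HSF V30M against 2.53 in HSF WT, or about 31 to 76 fragments against 46 to 130. The ratio of HSF WT over HSF V30M was 2.12 (1.31 to 3.48), and the log2 ratio was -0.69. The interval is wide because few fragments were counted and because the annotated transcripts, one coding and one with a retained intron, are 1383 and 2681 bases long.

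Dio2 and Crym are both low genes, above 17.7% and 13.3% of the 15620 genes in level. At this low level, a mean from 1 to 5 FPKM, 5415 genes were present, of which 12.4% were past the fold and lower. Both genes are known to be expressed in skeletal muscle as well, which borders the nerve. All 8 of the skeletal muscle markers with a mean of at least 1 FPKM were past the fold and lower in HSF V30M, with a median log2 ratio of -1.73. The sum over all 10 markers was 48.0 in HSF V30M against 170 in HSF WT, and none was at 0 in either group. Ckm, the muscle creatine kinase, had 8.97 and 43.8, while the low markers Mb, at 0.610 and 0.251, and Myh1, at 0.530 and 0.224, had higher values in HSF V30M. The part of muscle RNA in the lower Dio2 and Crym was not tested. In a bulk sample, fewer cells of a type and less RNA per cell cannot be told apart.

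Adipocyte markers were also lower, with 3 of 8 past the fold and lower, 0 higher, and a median of -0.41. Their sum was 2474 in HSF V30M against 3408 in HSF WT, and none was at 0. The ratios of myelinating Schwann cell markers lay from -0.35 to 0.45 and those of fibroblast markers from -0.53 to 0.26, with no marker of either list past the fold. For the perineurial list 0 of 4 were past the fold, and for macrophages 1 of 6 was, being lower. Other Schwann cell genes had 1 higher and 1 lower of 7, smooth muscle and pericyte genes 2 higher and 2 lower of 6, and endothelial genes 1 higher of 6.

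Thra (ENSMUSG00000058756), the receptor gene with the higher level, lies on the plus strand of chromosome 11 from 98740638 to 98769006. It reached 94.2 FPKM in HSF V30M against 81.1 in HSF WT, with a ratio of 1.16 (0.970 to 1.39) and a log2 ratio of 0.21. Thrb (ENSMUSG00000021779), which spans chromosome 14 from 17660261 to 18038090 on the plus strand, had 4.16 and 3.91, with a ratio of 1.06 (0.447 to 2.65) and a log2 ratio of 0.07. Both intervals span 1 at the lowest numbers of fragments, which for Thra are 326 and 198. The Thra values can stand for up to 5466 and 3803 fragments, so counting depth is not shown to be the limit there, and the spread between mice is not known. The receptors kept their order in both groups: on this scale per length, Thra was 22.6 times Thrb in HSF V30M and 20.7 times in HSF WT. The interval of Thrb is wide because its shortest annotated transcript, of 375 bases, sets the lowest number of fragments, 16 and 11. Gm24140, a small non-coding RNA gene on the opposite strand within the span of Thrb, had 4.26 and 2.91. The pseudogene Gm48320 and the antisense gene Gm48321, which shares 90772 bases with Thrb, also lie there on the opposite strand. Neither of these had a value among the genes used.

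The 3′ end of Thra overlaps that of Nr1d1, a repressor of the circadian clock that is encoded on the opposite strand. The annotated spans share 1075 bases. Transcript Thra-201, whose product is known not to bind the hormone, has 850 exonic bases inside the span of Nr1d1, of which 263 are also exonic in Nr1d1. Transcript Thra-202, which encodes the hormone-binding receptor, ends before the overlap. Nr1d1 reached 93.2 FPKM in HSF V30M against 55.1 in HSF WT, a log2 ratio of 0.75. Whether the libraries kept the strand is not given in the sources used here, so reads of the shared bases cannot be assigned with certainty, and the 1 value per gene does not separate the hormone-binding transcript from the other.

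**Figure D2:**
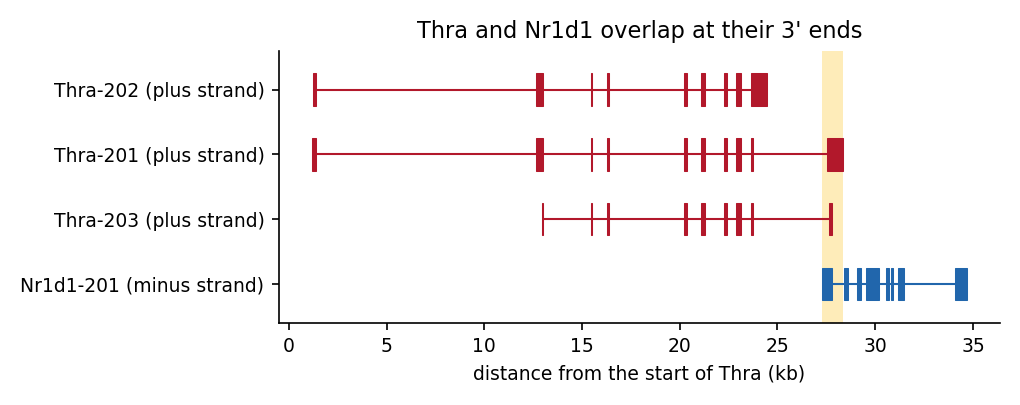
Exons (boxes) and introns (lines) of 3 transcripts of Thra on the plus strand and of Nr1d1 on the minus strand, by distance from the start of Thra in kb; the yellow band is the 1075 bases that the genes share. Thra-202 ends before the band, and Thra-201 and Thra-203 reach into it.

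Klf9 (ENSMUSG00000033863) lies on the plus strand of chromosome 19 from 23141226 to 23168134. It reached 37.2 FPKM in HSF V30M against 21.3 in HSF WT, or at least 747 and 302 fragments. The ratio was 1.75 (1.53 to 2.0), with a log2 ratio of 0.78, and 94.6% of the 15620 genes had a lower one. At the level of Klf9, a mean of at least 5 FPKM, 10205 genes were present, of which 7.17% were past the fold and higher. The microRNA gene Mir1192, which lies within Klf9, was listed at 0 in both groups.

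Of the 16 other Klf genes, which encode related zinc finger factors, 13 had a mean of at least 1 FPKM. Their ratios had a median of 0.25, 9 being positive and 4 negative. Klf15, a regulator of glucose and amino acid metabolism, was past the fold and higher, with 33.3 in HSF V30M against 21.4 in HSF WT. Klf8 was past the fold and lower, with 0.80 and 7.05. The Klf8 values can stand for 1 to 94 and 5 to 668 fragments, and no counting interval was available for it. The other 11 were within the fold.

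Besides thyroid hormone, glucocorticoids and the circadian clock are known to drive Klf9. The clock output list of 9 genes also holds core clock genes, among them Per2 and Arntl. Of these 9 genes, 7 were past the fold and higher in HSF V30M and 1 was past the fold and lower. Their median log2 ratio was 0.80. Dbp, a transcription factor with one of the steepest daily rhythms, had 73.7 and 17.5, and Per2, a core repressor of the clock, had 20.7 and 6.51. Arntl, whose product activates these genes and whose transcript peaks in the opposite phase, had 4.32 and 8.20. Of 7 glucocorticoid-responsive genes, 4 were past the fold and higher and 0 were past the fold and lower, with a median of 0.68. Per1, which is also a clock gene, was 1 of these 4, at 34.5 and 13.3, so the counts of these lists do not separate the clock from glucocorticoids. Tsc22d3, also known as the glucocorticoid-induced leucine zipper, had 84.8 and 37.7, and Fkbp5, a chaperone that restrains the glucocorticoid receptor, had 20.9 and 12.3. Mt2, which encodes a metallothionein, was the 1 gene of this list with a negative ratio, at 73.6 and 109, a log2 ratio of -0.56. The time of day of nerve collection is not given in the sources used here. Blood cell markers differed as well: 6 of 6 neutrophil and 5 of 6 erythrocyte markers were past the fold and higher, with sums of 104 against 26.3 and 291 against 101, and all 4 B cell markers above the minimum were past the fold and lower. None of these markers was at 0 in either group. The part of the clock, of glucocorticoids and of blood cells in the higher Klf9 was not tested.

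**Figure D3:**
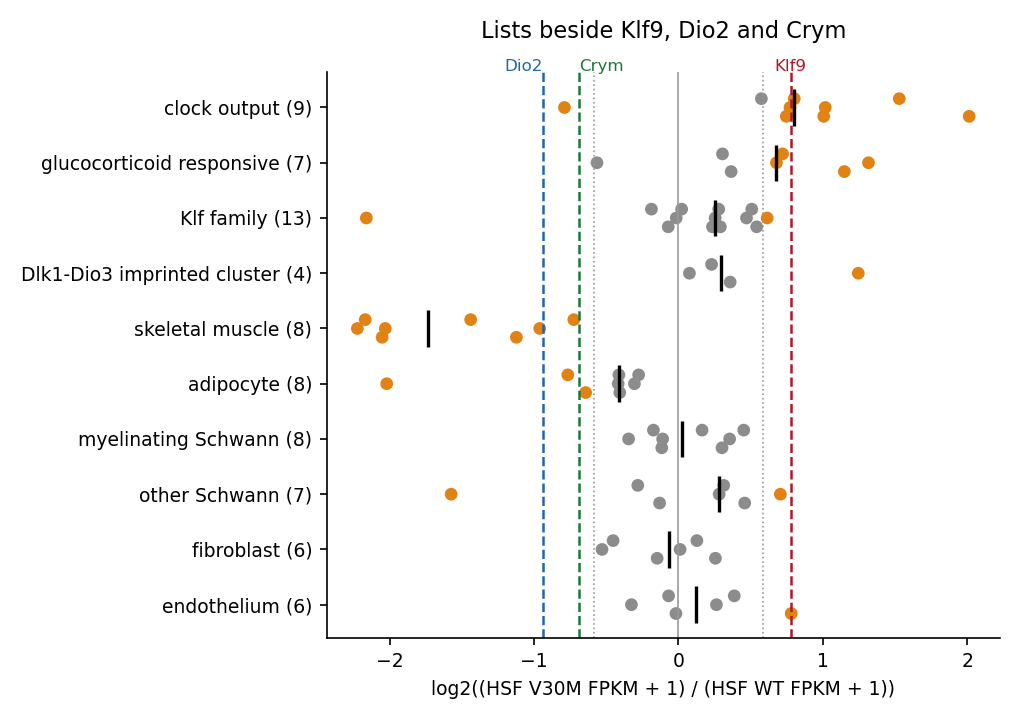
Log2 ratios of FPKM + 1, HSF V30M over HSF WT, of the genes that reached a mean of 1 FPKM in 10 lists, with their number in brackets; each point is 1 gene, orange where past the 1.5-fold lines (dotted), black bars are list medians, and dashed lines mark Dio2, Crym and Klf9. Klf9 is at 0.78, the medians of the clock output and glucocorticoid lists are 0.80 and 0.68, and the skeletal muscle points all lie below -0.72. A ratio near a list median does not show a shared pattern. Among lists not drawn, the medians were 1.76 for neutrophil, 1.40 for erythrocyte and -1.87 for B cell markers.

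The rest of the thyroid hormone pathway was described from lists of 48 genes by role. Of these, 35 had a mean of at least 1 FPKM, of which 2 were past the fold and higher (Slc7a5 and Ttr), 4 past the fold and lower, and 29 within it. Their median log2 ratio was -0.01. With 6 of 35 past the fold, the share was close to the 16.7% of all genes.

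Among 6 membrane transporters with a mean of at least 1 FPKM, 1 was past the fold. Slc7a5, the light chain of an amino acid transporter that also carries thyroid hormone, reached 37.2 FPKM in HSF V30M against 14.5 in HSF WT, a log2 ratio of 1.30. Its heavy chain partner Slc3a2 had the highest level of the list, 212 and 242. Slco1a4, an organic anion transporter that also carries thyroxine, had 8.09 and 5.33, within the fold.

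Of the plasma carriers, Alb, which encodes albumin, had 1.76 in HSF V30M against 3.82 in HSF WT, a log2 ratio of -0.80. The interval of its FPKM ratio, 0.461 (0.115 to 1.69), spans 1 at the lowest numbers of fragments, 5 and 8. Ttr is given above, and Serpina7, which encodes thyroxine-binding globulin, was listed at 0 in both groups. For Serpina7, 3 fragments would have given 0.770 FPKM in HSF V30M and 1.09 in HSF WT. The nuclear partners of the receptors did not pass the fold in any case. This holds for the 3 retinoid X receptors, led by Rxra at 28.5 and 24.0, for the 6 corepressor subunits, led by Ncor1 at 95.7 and 114, and for the 7 coactivators, led by Ep300 at 29.9 and 31.2. Their ratios lay from -0.47 to 0.45.

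**Figure D4:**
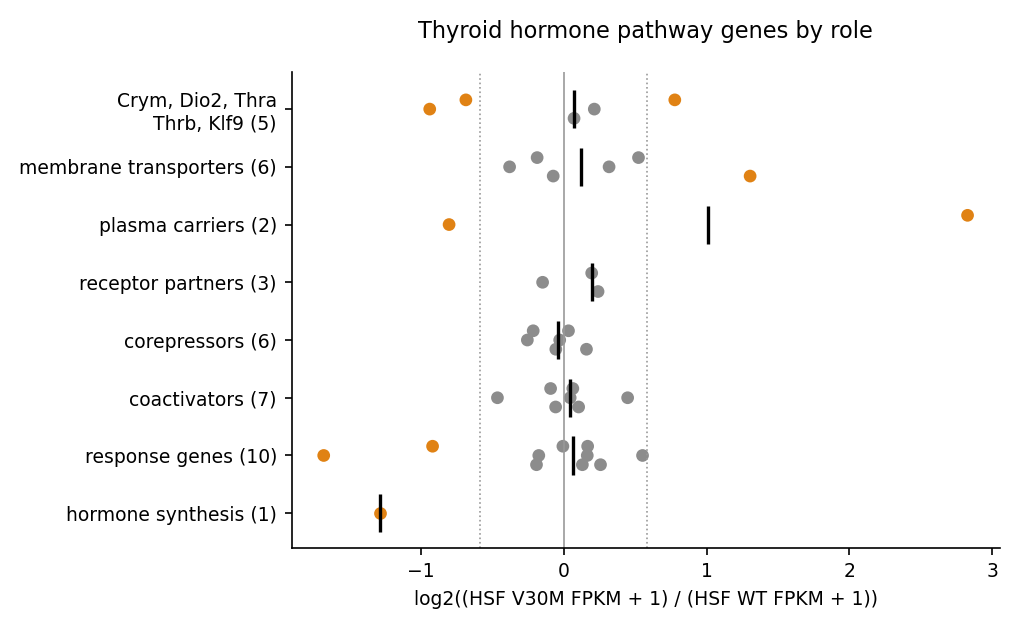
Log2 ratios of FPKM + 1, HSF V30M over HSF WT, of the thyroid hormone pathway genes that reached a mean of 1 FPKM, by role and with their number in brackets; each point is 1 gene, orange where past the 1.5-fold lines (dotted), and black bars are list medians. The receptor partners, corepressors and coactivators all lie between -0.47 and 0.45, while Dio2, Crym, Atp2a1, Thrsp, Tshr and Alb lie past the lower line.

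The response genes other than Klf9 lay on both sides, 5 with positive and 5 with negative ratios. Of these 10, all with a mean of at least 1 FPKM, 0 were past the fold and higher, 2 were past the fold and lower, and the median was 0.06. Hr, a corepressor that the hormone induces strongly in brain, had 12.5 in HSF V30M against 8.22 in HSF WT, a log2 ratio of 0.55. Mbp, which encodes myelin basic protein, had 3854 and 3441. Thrsp, a lipogenic factor of adipose tissue and liver, had 70.0 and 133, a log2 ratio of -0.92. Atp2a1, the calcium pump of fast skeletal muscle, had 3.63 and 13.9, a log2 ratio of -1.68. The part of muscle and adipose RNA in the values of Atp2a1 and Thrsp was not tested.

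Of 8 genes of hormone synthesis in the thyroid gland, only Tshr had a mean of at least 1 FPKM. Tshr encodes the thyrotropin receptor, which adipocytes also express, and had 2.01 in HSF V30M against 6.34 in HSF WT, a log2 ratio of -1.29. The part of adipose RNA in the Tshr values was not tested. Tg, which encodes thyroglobulin, was at 0.830 and 0.804.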

How the data were processed

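Sciatic nerve RNA was sequenced by Ion Torrent and aligned by the authors to GRCm38 (C57BL/6J). Their submitted processing notes name STAR, Cufflinks and Cuffdiff, and versions are not given in the sources used here. The deposited table gives 1 FPKM per gene and group, estimated by the authors in Cuffdiff, written with decimal commas. The methods give n = 4 without saying whether this is per group. The table's fold changes, test statistics, p-values and q-values are the authors' own comparison and were not used; its status flag was used only to leave out 23 genes without an estimate.

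Ratios used a pseudocount of 1, and genes under a mean FPKM of 1 were left out of summaries. No test between groups was made, since no value per mouse exists in the table. The worth of 1 fragment was sought among 16688 genes that have 1 transcript and overlap no other gene, after taking 201 bases off the transcript length. Only genes with values inside the windows entered the medians, 176 and 200 in HSF V30M and 453 and 385 in HSF WT. The range of transcript lengths used differed between the groups. A limit at 0 is 3 fragments on the shortest transcript. Transcripts and positions are from GENCODE M21, which holds 50346 of the gene identifiers and lacks 224.

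Members and lists were chosen with earlier results of these data known. Named genes were the 6 members, pathway genes past the fold, the highest gene of each pathway list, genes overlapping a member, and Klf and Dlk1-Dio3 cluster genes past the fold; the others were named after their values were seen, as were the backgrounds split at a mean FPKM of 5. Steps were tested on simulated data, where the worth of 1 fragment was tried only with unrounded values and the HSF WT windows. Other settings tried were upper-quartile and median-of-ratios scaling, a pseudocount of 0.1, minimum means of 5 or none, and a fold over 2; the use of no pseudocount was added after seeing the data. Software was scipy 1.17.1, pandas 2.3.3 and numpy 2.4.6 under Python 3.11.15, with matplotlib 3.10.9 for plots.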

Additional observations from a re-analysis of the deposited data

How the results depend on the processing

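No paired analysis was possible because values per mouse are not in the table, and for the same reason no replicate could be left out. Klf9, Dio2 and Crym were the 3 genes past the fold under both scalings, both other pseudocounts and no minimum mean. With a mean FPKM of at least 5, only 2 of the 6 genes remained, of which 1 was past the fold, Klf9. Dio2 and Crym are among the genes that fail that minimum. With a fold over 2 on the scale with pseudocount 1, 0 of 5 genes were past it, although the plain FPKM ratios of Dio2 and Crym are above 2. The log2 ratio of Dio2 was -0.94, and became -1.34 at pseudocount 0.1 and -1.40 at no pseudocount, as a smaller pseudocount shrinks low genes less. The pathway genes past the fold numbered 6 of 35, and 3 of 30 with a mean of at least 5. With a pseudocount of 0.1 there were 8, with Hr and Slco1a4 also past the fold and higher. Over all genes 2603 were past the fold (16.7%), and 3395 with a pseudocount of 0.1 (21.7%). With a mean of at least 5 there were 1378 (13.5% of 10205), and with a fold over 2 there were 1237 (7.92%). Depth limits Dio3, with as few as 8 fragments in HSF WT. For Thrb and Crym the transcripts are not separated, so their numbers of fragments are known only within a range.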

Other observations

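Mir1247, a microRNA gene of 82 bases that ends 939 bases before Dio3, stood at 51.1 FPKM in HSF V30M and was listed at 0 in HSF WT. The gene was chosen after its values were seen. It is shorter than the stretch taken off a transcript length when fragments are counted, so its FPKM cannot be turned into fragments.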
